A study of Mus musculus with 6 samples.

Results

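The genes described here are 10 genes that mark the pericentral zone of the liver lobule or are targets of Wnt/beta-catenin signalling, together with the gene of beta-catenin itself: Glul, Cyp2e1, Axin2, Lgr5, Tbx3, Rhbg, Slc1a2, Lect2, Ctnnb1 and Ccnd1. A member was any array feature whose platform annotation gave exactly 1 gene symbol equal to one of these names. This gave 10 features for 9 genes, of 24343 features with 1 symbol. Glul had 2 features, which are given apart. Slc1a2, the glutamate transporter of pericentral hepatocytes, had no such feature, so no value is given for it. All 10 features passed the filter on dim features, which 18257 of the 24343 passed.

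Total RNA was measured on 1 array per sample. The samples were 3 hepatocellular carcinomas, called tumour 405, 483 and 616 here by the numbers in the labels, and they were compared with 3 samples of non-tumorous liver, called non-tumour 405, 483 and 623. All 6 came from untreated C57BL/6 mice of 24 months with the genotype SRSF3HKO, a hepatocyte knockout of the splicing factor gene Srsf3, so the non-tumorous livers carry the knockout too. No liver with intact Srsf3 was analysed here, and the labels name neither the promoter behind the deletion nor the sex of the mice. Whether samples of 1 group, or samples with a shared number, are from separate animals is not stated, so p-values measure only the spread between these samples.

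In the liver lobule, blood flows from the portal vein to the central vein, and hepatocytes differ along that path. Endothelial cells of the central vein secrete Wnt ligands and R-spondins. In the nearest hepatocytes these stabilise beta-catenin, which enters the nucleus and, with TCF/LEF factors, turns on the pericentral programme that includes glutamine synthesis and cytochrome P450 enzymes. Liver tumours with activating beta-catenin mutations characteristically make glutamine synthetase in large amounts.

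Array values are log2(intensity + 16) after quantile normalization of the features with 1 symbol, and a difference is the tumour mean minus the non-tumour mean in log2 units. As deposited, the median intensity of those features was between 83.6 and 151 in the tumours and between 122 and 197 in non-tumour. The log2 medians of the 6 arrays spanned 1.09 units. Tumour 405 was the dimmest of the 6, with the median of 83.6, and non-tumour 405 had a median of 183. Xist, which silences 1 X chromosome in females, lay between 10.55 and 12.21 in the tumours and at 12.30, 12.05 and 5.17 in non-tumour 405, 483 and 623. The Y-linked Eif2s3y lay between 4.38 and 5.10 in the tumours and at 4.43, 4.17 and 8.69 in non-tumour 405, 483 and 623. By both genes non-tumour 623 had the pattern of a male and the other arrays that of females, so sex was not balanced between the groups. The hepatocyte gene Alb, the albumin gene, stood between 13.23 and 13.33 in the tumours and between 13.26 and 13.33 in non-tumour, at the top of the scale. The number of arrays limits the precision, and an exact permutation test of 3 against 3 cannot go below p = 0.1.

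Of the 10 features, 7 were lowest in tumour 405, while tumour 483 and tumour 616 lay near or within the range of non-tumorous liver for most of them. These 7 were the brighter feature of Glul and the features of Cyp2e1, Axin2, Lgr5, Tbx3, Rhbg and Lect2. Non-tumour 405 was the next lowest array for 5 of the 7, all but Axin2 and Lect2. Tumour and non-tumour overlapped for all 10 features, and none passed the test of the group difference. For these 7 the SD among the tumours was between 1.03 and 2.34 log2 units. Fewer pericentral cells and less of each RNA per cell cannot be told apart in whole tissue.

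**Figure D1:**
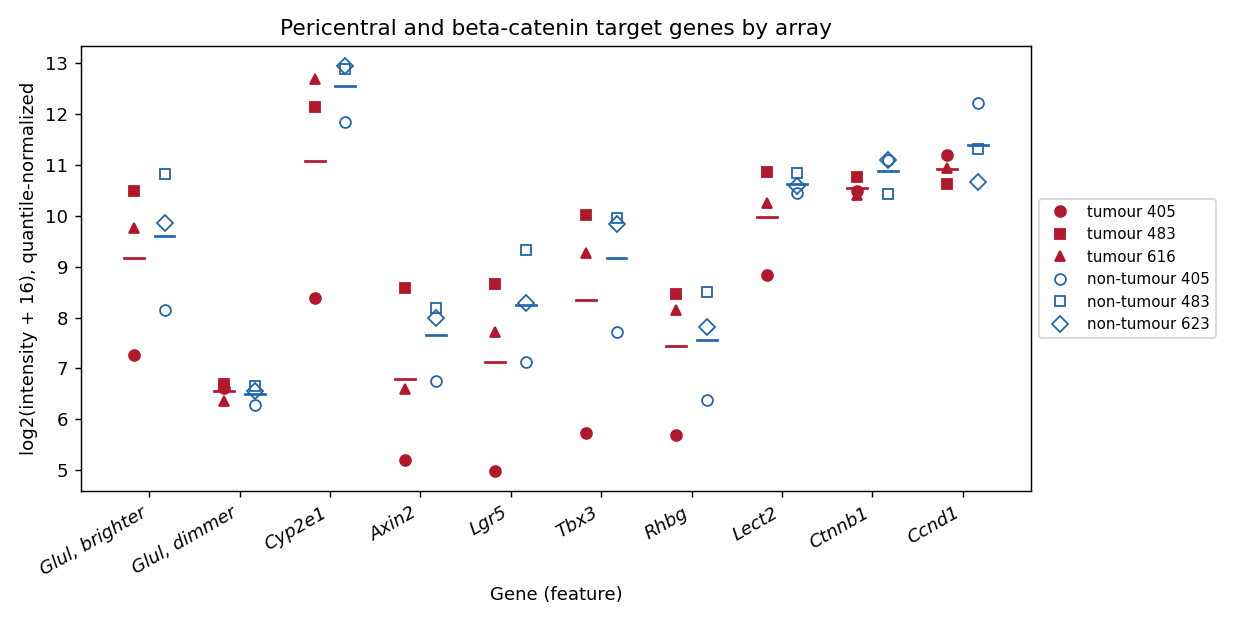
Values of the 10 features on each of the 6 arrays, as log2(intensity + 16) after quantile normalization (y axis), with a red filled symbol for each tumour, a blue open symbol for each non-tumour sample, and a bar at each group mean. Tumour 405 (red circle) is the lowest point for 7 of the 10 features, and non-tumour 405 (blue circle) is next for 5 of these.

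Glul encodes glutamine synthetase, which binds ammonia to glutamate and in normal liver is confined to the last rows of hepatocytes around the central vein. Its brighter feature (6754149) stood at 7.27, 10.48 and 9.76 in tumour 405, 483 and 616, against 8.14, 10.81 and 9.85 in non-tumour 405, 483 and 623. Both arrays numbered 405 were low, and the other 4 lay between 9.76 and 10.81. The group means were 9.17 ± 1.68 in tumour and 9.60 ± 1.35 in non-tumour (SD, n = 3 each). The difference was -0.43, with a 95% interval from -2.49 to 1.63 (limma adjusted p = 0.936). The dimmer feature (6779145) did not follow the brighter one. It lay between 6.36 and 6.69 in the tumours and between 6.28 and 6.66 in non-tumour, a range of 0.40 units over all 6 arrays. Its mean of 6.53 was near the filter at 6.22. Its difference was 0.06 ± 0.18 (SE, limma adjusted p = 0.956), and as deposited it was -0.48.

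Cyp2e1 encodes the pericentral cytochrome P450 that oxidises ethanol and paracetamol. Of the 10 features it had the widest range among the tumours on the normalized log2 scale. The deposited intensities, before any normalization here, were 207 in tumour 405, 4568 in tumour 483 and 6897 in tumour 616, against 3091, 7973 and 9202 in non-tumour 405, 483 and 623. On the normalized log2 scale these were 8.38, 12.13 and 12.68 in the tumours, against 11.85, 12.87 and 12.94 in non-tumour. Tumour 405 lay 3.47 units below the next lowest array, non-tumour 405, and the tumours spanned 4.31 units, a 19.8-fold range. The difference of the group means was -1.49 ± 0.98 (SE, n = 3 each, limma adjusted p = 0.921). As deposited Cyp2e1 was the only feature of these genes that passed (-1.67, limma adjusted p = 0.0455). That fit gave it an SD of 0.54 taken from features of like intensity, where its own SD was 2.01.

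Rhbg encodes an ammonia transporter of pericentral hepatocytes, which shares a cell zone and a substrate with glutamine synthetase. It stood at 5.69, 8.46 and 8.15 in tumour 405, 483 and 616, against 6.38, 8.49 and 7.82 in non-tumour 405, 483 and 623. The order of the arrays was nearly that of the brighter Glul feature, with both arrays numbered 405 lowest. The difference was -0.13 ± 0.77 (SE, limma adjusted p = 0.975).

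Lect2 encodes a secreted hepatokine and is a target of beta-catenin in mouse liver. It stood at 8.84, 10.85 and 10.24 in tumour 405, 483 and 616, against 10.44, 10.84 and 10.58 in non-tumour 405, 483 and 623. The non-tumour samples spanned only 0.41 units and the tumours 2.01 units, since tumour 405 lay 1.40 units below tumour 616, the next lowest array. The difference was -0.64 ± 0.48 (SE, limma adjusted p = 0.921).

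The start regions of Cyp2e1 and Lect2 are shown because, among the members with values and an entry in the promoter table, only these 2 hold a letter match to the TCF/LEF core motif. Capitals mark a match to the core CTTTGNN, where each N was allowed to be A or T only, on either strand (no match overlapped another). The sequences are the 250 bases before the start of the gene, 5′ to 3′ on the strand of the gene, from RefSeq on GRCm38.p6: chr7:140763569-140763818 on the plus strand for Cyp2e1 and chr13:56548539-56548788 on the minus strand for Lect2.
Cyp2e1: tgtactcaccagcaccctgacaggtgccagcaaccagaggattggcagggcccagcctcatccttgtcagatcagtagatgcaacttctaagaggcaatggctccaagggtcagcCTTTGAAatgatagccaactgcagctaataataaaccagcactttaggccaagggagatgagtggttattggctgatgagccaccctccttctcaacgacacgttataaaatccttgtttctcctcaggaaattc
Lect2: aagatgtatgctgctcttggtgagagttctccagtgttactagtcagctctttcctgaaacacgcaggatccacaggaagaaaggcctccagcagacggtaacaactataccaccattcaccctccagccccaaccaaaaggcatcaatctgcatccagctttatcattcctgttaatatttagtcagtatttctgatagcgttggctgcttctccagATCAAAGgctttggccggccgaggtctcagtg

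The match began 135 bases before the start in Cyp2e1 and 32 bases before it in Lect2, where it lies on the opposite strand. Of the 6 listed genes in the promoter table, 3 had a match, and the other one was Slc1a2, which has no value here. Over all 32851 promoter windows of the same length, 14.8% held at least 1 match, a share per window and not per gene. The windows of Glul, Axin2 and Ctnnb1 held none, and bases outside the windows were not searched. The brighter Glul feature and Axin2 were also lowest in tumour 405. A match in these letters is a description and not a binding site.

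Axin2 encodes a scaffold of the complex that degrades beta-catenin, and as a direct Wnt target it forms a negative feedback loop. It stood at 5.20, 8.58 and 6.59 in tumour 405, 483 and 616, against 6.76, 8.19 and 8.00 in non-tumour 405, 483 and 623. Tumour 483 was the highest and tumour 405 the lowest of the 6 arrays, and tumour 616 also lay below all 3 non-tumour samples. Of the 7 features lowest in tumour 405, Axin2 and Lect2 were those for which tumour 616 came next. The difference was -0.86 ± 0.77 (SE, limma adjusted p = 0.921).

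Lgr5 encodes a receptor for R-spondins, which raise the sensitivity of a cell to Wnt, and in resting liver it marks pericentral hepatocytes. It stood at 4.99, 8.66 and 7.71 in tumour 405, 483 and 616, against 7.14, 9.32 and 8.29 in non-tumour 405, 483 and 623. The deposited intensity in tumour 405 was 9.76, under the pseudocount of 16. The pseudocount compresses such dim values, so how far tumour 405 lies below the other arrays is uncertain. On the normalized log2 scale it lay 2.14 units below non-tumour 405, the next lowest. The difference of the group means was -1.13 ± 0.90 (SE, limma adjusted p = 0.921).

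Tbx3 encodes a T-box transcription factor that is induced by beta-catenin in mouse liver and liver tumours. It stood at 5.72, 10.01 and 9.27 in tumour 405, 483 and 616, against 7.71, 9.95 and 9.83 in non-tumour 405, 483 and 623. The tumours spanned 4.29 units, a 19.6-fold range, the second widest after Cyp2e1. Tumour 483 and non-tumour 483 differed by only 0.07 units, and both arrays numbered 405 were the lowest. The difference was -0.83 ± 1.07 (SE, limma adjusted p = 0.921).

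Ctnnb1, the gene of beta-catenin, did not share this spread. It stood at 10.49, 10.77 and 10.40 in tumour 405, 483 and 616, against 11.09, 10.42 and 11.10 in non-tumour 405, 483 and 623. The tumours spanned 0.37 units and tumour 405 was their middle value. Its difference was -0.32 ± 0.27 (SE, limma adjusted p = 0.921), and it was 0.18 after median centring. Beta-catenin is regulated mainly by degradation of the protein, which these arrays do not measure.

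Ccnd1 encodes cyclin D1, which drives entry into the cell cycle and is used as a Wnt target in many tissues. It stood at 11.19, 10.61 and 10.93 in tumour 405, 483 and 616, against 12.20, 11.30 and 10.66 in non-tumour 405, 483 and 623. The order was unlike that of the pericentral genes, since non-tumour 405 was the highest array and tumour 405 the highest of the tumours. The difference was -0.48 ± 0.38 (SE, limma adjusted p = 0.921), and it was 0.03 after median centring.

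Over the 10 features, 9 had a lower mean in tumour, against 56.2% of all 18257 features kept, but 0 passed the test in either direction, where the share of all features called was 0% higher and 0% lower. The smallest unadjusted p among them was 0.168, for Cyp2e1. Over all features limma gave an unadjusted p under 0.05 for 490 features higher in tumour and 186 lower. The groups did not overlap for 0 of the 10 features, against 3.81% of all features lower and 3.97% higher. The median difference was -0.56 over the 10 features and -0.05 over all. As deposited, 1 of the 10 passed, lower in tumour, where 0.252% of all features were called lower and 0.0767% higher. The deposited scale sets the median of all features at -0.48.

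The size of the group difference rested on single arrays. The median of the 10 features was -0.06 without tumour 405 and -0.20 without both arrays numbered 405, a choice made after their values were seen. It was -1.09 without tumour 483, -0.98 without non-tumour 405 and -0.26 after median centring. Without tumour 405 the brighter Glul feature (0.50), Rhbg (0.75) and Tbx3 (0.47) had a higher mean in tumour, and 6 of the 10 features had a lower mean in tumour. With both arrays numbered 405 left out, Cyp2e1 stood at -0.49, Lgr5 at -0.65 and Axin2 at -0.54, against -1.49, -1.13 and -0.86 with all arrays. Without tumour 405 alone these were -0.14, -0.06 and -0.07, and Lect2 stood at -0.07.

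**Figure D2:**
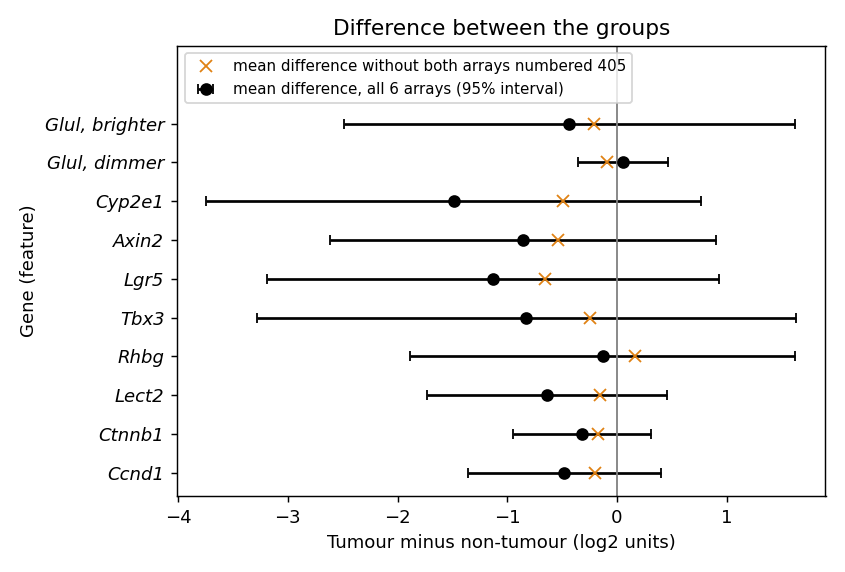
Tumour minus non-tumour difference of each feature in log2 units (x axis), with its 95% interval from the fit over all 6 arrays (black) and the difference without both arrays numbered 405 (orange cross). Every interval includes 0, and the crosses lie between -0.65 and 0.16.

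The SD among the 3 tumours was a median of 1.60 over the 10 features, against 0.23 over all features. Among the 3 non-tumour samples it was 0.78, against 0.33 over all features. Cyp2e1 (SD 2.34 in tumour and 0.61 in non-tumour), Tbx3 (2.29 and 1.26), Lgr5 (1.90 and 1.09) and Axin2 (1.70 and 0.78) varied most among the tumours. These 4, the brighter Glul feature and Rhbg, 6 features in all, had a tumour SD above that of at least 99.4% of all features, and Lect2 (1.03 and 0.21) lay at the 97.8th percentile. Ctnnb1 (0.19 and 0.39), Ccnd1 (0.29 and 0.77) and the dimmer Glul feature (0.17 and 0.20) varied less among the tumours than in non-tumour. A range of at least 2 units among the tumours was seen in 7 of the 10 features, against 2.15% of all features.

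This spread among the tumours rested on tumour 405. Without it the median SD of the 10 features over the other 2 tumours was 0.40, and without both arrays numbered 405 it was also 0.40. Tumour 405 was lowest of all arrays for 7 of the 10 features, against 17.5% of all features, and lowest by at least 1 log2 unit for 5, against 0.800%. On the deposited scale these were 7 and 7, against 56.2% and 2.74% of all features, and after median centring 7 and 4, against 11.7% and 0.493%. Relative to the non-tumour mean, the median feature of the 10 was at -2.10, 0.32 and -0.26 in tumour 405, 483 and 616. The distance of 1 unit was chosen after the values were seen.

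**Figure D3:**
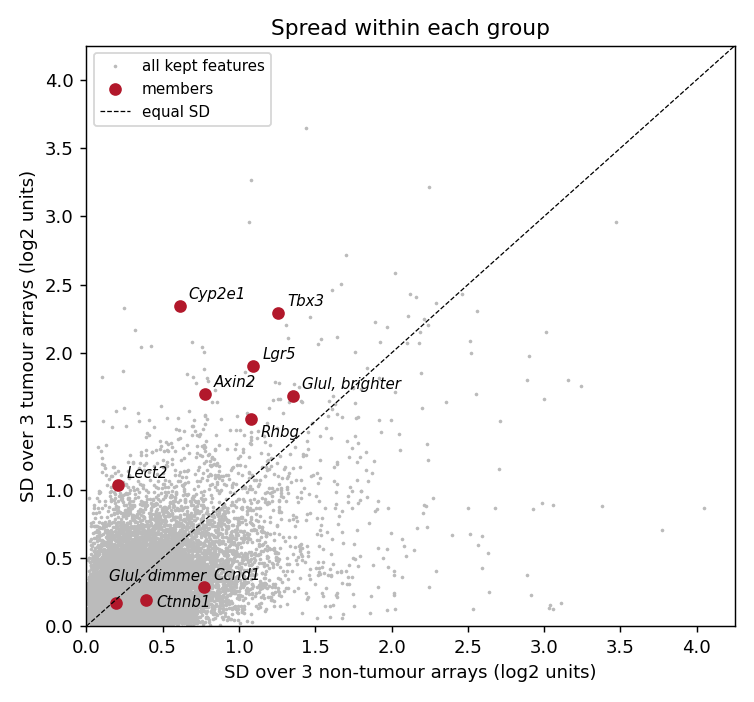
SD over the 3 tumour arrays (y axis) against SD over the 3 non-tumour arrays (x axis), in log2 units, for all 18257 features kept (grey) and the 10 features of pericentral and beta-catenin target genes (red). Of the 10, 6 lie above 1.5 in tumour, while the median feature of all lies at 0.23.

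Most of the other pericentral hepatocyte genes were also lowest in tumour 405. Of 22 genes listed, 14 had features, 15 in all, and 8 had no feature with 1 symbol. The difference was negative in 13 of the 15 and positive in 2, none passed (smallest limma adjusted p = 0.921), and the median was -0.37. It turned to 0.18 without tumour 405, and was -1.01 without non-tumour 405, -0.83 without tumour 483, -0.75 without tumour 616 and -0.19 without non-tumour 483. Tumour 405 was lowest for 10 of the 15, and by at least 1 unit for 8. Relative to its 6-array mean, the median feature was at -2.44, 0.35 and 0.38 in tumour 405, 483 and 616, against -0.58, 1.09 and 0.51 in non-tumour 405, 483 and 623.

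Cldn2, a tight junction claudin, had the smallest p of that list. It stood at 5.65, 9.39 and 9.08 in tumour 405, 483 and 616, against 10.50, 9.25 and 10.40 in non-tumour 405, 483 and 623 (difference -2.01 ± 0.91, SE, limma adjusted p = 0.921). Here non-tumour 405 was the highest array, unlike for Glul. Cyp7a1, which opens the main route from cholesterol to bile acids, stood at 4.37, 9.03 and 10.53 in the tumours, against 7.41, 11.77 and 10.52 in non-tumour. As deposited Cldn2 (-2.19) and Cyp7a1 (-2.20) passed, lower in tumour, each with limma adjusted p = 0.0389. Lhpp, a phosphatase, stood at 7.20 in tumour 405 and at 9.76 and 10.25 in tumour 483 and 616, against 9.25, 11.89 and 9.70 in non-tumour. Nr1i2, the pregnane X receptor, did not share the pattern and lay between 10.36 and 11.02 in the tumours and between 10.12 and 10.70 in non-tumour.

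Periportal hepatocyte genes belong to the opposite end of the lobule. Of 15 features from 14 genes, 7 had positive and 8 negative differences, none passed (smallest limma adjusted p = 0.921), and the median was -0.15, which turned to 0.32 after median centring, 0.12 without tumour 405 and 0.03 without non-tumour 623. Tumour 405 was lowest for 3 of the 15. Their median feature stood at -0.0041 in tumour 405, which was still the lowest of the 6 arrays, the others being at 0.03 to 0.19. Cyp2f2, a periportal cytochrome P450, stood at 13.33, 12.03 and 13.06 in tumour 405, 483 and 616, against 12.30, 11.69 and 12.47 in non-tumour 405, 483 and 623, so tumour 405 was its highest array. Hsd17b6, a steroid dehydrogenase, was also highest in tumour 405, at 12.63. Pigr, the receptor that carries IgA into bile, was the only one of the 15 lowest in tumour 405 by at least 1 unit, at 7.61 in tumour 405 and 12.04 and 11.07 in tumour 483 and 616, against 11.57 to 12.05 in non-tumour. Ctsc, a lysosomal protease, had a dimmer feature (6962377) that was lowest in tumour 616, at 7.79. The brighter Ctsc feature (6962376) was lowest in tumour 405, at 10.395, with the remaining arrays at 10.899 to 11.637. A test of the pericentral against the periportal genes was not made.

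**Figure D4:**
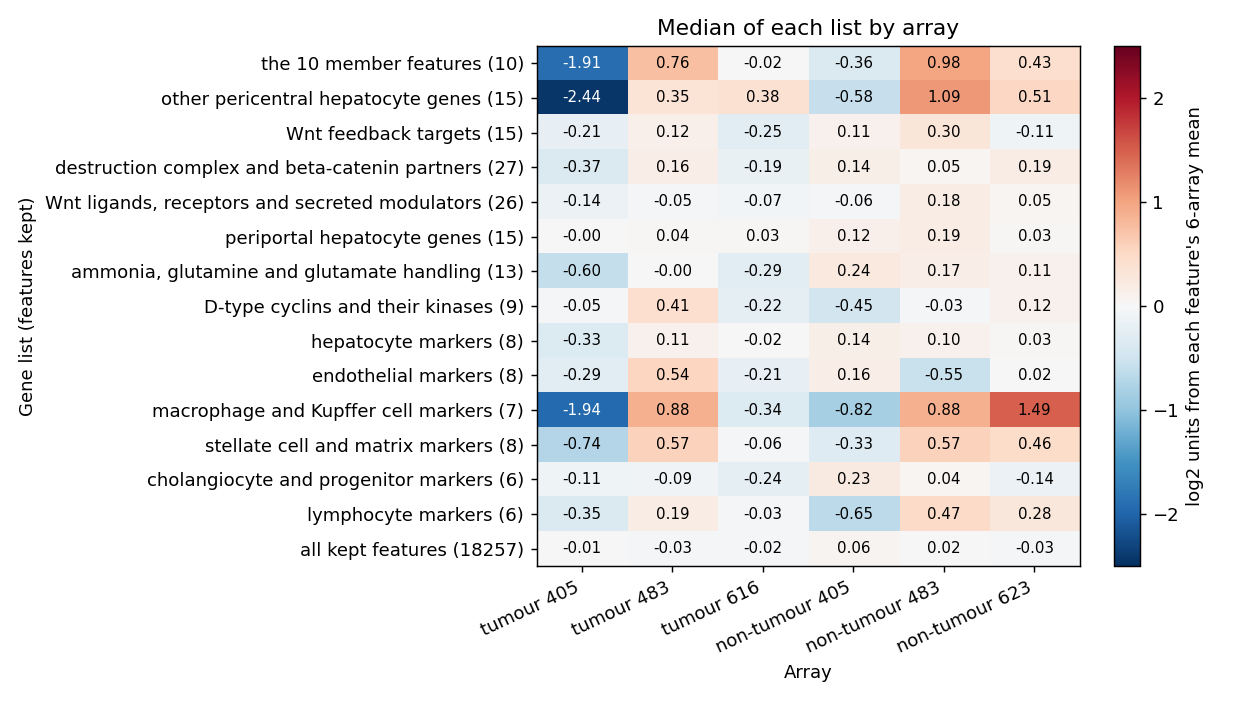
Median of each gene list on each array (columns, tumours left), in log2 units from each feature's mean over the 6 arrays, with the number of features kept in brackets. Tumour 405 is lowest for the 10 features (-1.91), for other pericentral genes (-2.44) and for macrophage and Kupffer cell markers (-1.94). It is also lowest, nearer to 0, for stellate (-0.74), ammonia (-0.60), destruction complex (-0.37), hepatocyte (-0.33), Wnt ligand (-0.14) and periportal (-0.0041) lists.

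Several markers of other cell types were low in the same array. Of 7 macrophage and Kupffer cell markers, 6 were lowest in tumour 405, and their mean level was 7.20, 9.98 and 8.73 in tumour 405, 483 and 616, against 8.21, 9.75 and 10.39 in non-tumour 405, 483 and 623. Vsig4, a complement receptor of Kupffer cells, stood at 7.48, 11.21 and 9.46 in the tumours, against 9.77, 11.22 and 11.78 in non-tumour. The mean level of 8 stellate cell and matrix markers was 7.69, 9.27 and 8.81 in the tumours, against 8.66, 9.38 and 9.06 in non-tumour, with 5 of 8 lowest in tumour 405. For 6 lymphocyte markers it was 6.65, 7.36 and 7.13 in the tumours, against 6.51, 7.75 and 7.45 in non-tumour, with both arrays numbered 405 lowest. Of 8 hepatocyte markers 5 were lowest in tumour 405, by less than 1 unit each, and Trf and Hnf4a were equally low in tumour 405 and tumour 616, with a mean level of 12.19, 12.63 and 12.55 in the tumours, against 12.80, 12.80 and 12.63 in non-tumour. The median difference was -0.93 for the macrophage, -0.19 for the stellate, -0.20 for the lymphocyte and -0.27 for the hepatocyte markers, and none passed. Single arrays moved these medians. The macrophage one was -0.34 without tumour 405, -1.65 without tumour 483, -1.87 without non-tumour 405 and -0.25 without non-tumour 623. Without tumour 405 the stellate median was 0.11, the lymphocyte one 0.04 and the hepatocyte one -0.08, and the hepatocyte one was 0.21 after median centring. The lymphocyte one was also positive without non-tumour 483, at 0.02. No marker is listed at 0, and Cd3g fell under the filter. Their part in the low values of tumour 405 was not tested.

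Of 15 features of targets and feedback inhibitors of Wnt, from 13 genes, 3 had positive and 12 negative differences, none passed (smallest limma adjusted p = 0.921), the median was -0.19 (-0.46 without tumour 483 and -0.11 without non-tumour 483), and tumour 405 was lowest for 4. Rnf43, a ubiquitin ligase that removes Wnt receptors from the surface, stood at 6.13, 8.48 and 7.74 in tumour 405, 483 and 616, against 8.24, 8.63 and 8.77 in non-tumour 405, 483 and 623 (difference -1.10 ± 0.54, SE, limma adjusted p = 0.921). Nkd1, an inhibitor of Dishevelled, was also lowest in tumour 405, at 7.05, with the tumours at most 7.66 and non-tumour between 7.36 and 8.11. Znrf3, a ubiquitin ligase related to Rnf43, was lowest in non-tumour 405 for both its features. Prom1, a membrane glycoprotein of progenitors, was highest in non-tumour 405, at 11.14 in its brighter feature, against 9.04 to 10.15 in the tumours.

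Of 27 features of the destruction complex and partners of beta-catenin, 8 had positive and 19 negative differences, none passed (smallest limma adjusted p = 0.921), and the median was -0.16, or 0.02 after median centring, -0.35 without tumour 483 or non-tumour 483 and -0.06 without tumour 405. Tumour 405 was lowest for 11 of the 27, by less than 1 unit each. Tcf7l2, the main TCF factor of liver, stood at 9.00, 9.65 and 8.89 in tumour 405, 483 and 616, against 10.34, 9.95 and 9.69 in non-tumour 405, 483 and 623. Its groups did not overlap, and the difference was -0.81 ± 0.32 (SE, limma adjusted p = 0.921). Dvl3, a Dishevelled protein that relays the Wnt signal, lay between 9.10 and 9.78 in the tumours and between 9.87 and 10.11 in non-tumour, also without overlap. Axin1, the core scaffold of the destruction complex, had the opposite sign. It stood at 9.43, 9.42 and 9.66 in tumour 405, 483 and 616, against 8.57, 9.15 and 9.36 in non-tumour 405, 483 and 623, without overlap (difference 0.48 ± 0.30, SE, limma adjusted p = 0.921). It is named here after its values were seen. So 2 of the 27 did not overlap and were lower and 1 was higher, where the shares over all features were 3.81% and 3.97%. Ctnnbip1 (0.93) and Cby1 (0.77), both of which inhibit the binding of beta-catenin to TCF factors, had positive differences with overlapping groups.

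Of 26 features of Wnt ligands, receptors and secreted modulators, 7 had positive and 19 negative differences, none passed (smallest limma adjusted p = 0.921), and the median was -0.20. Tumour 405 was lowest for 11 of the 26, by less than 1 unit each. Their values lay close together, with a median SD of 0.22 among the tumours and 0.38 in non-tumour. Wnt2, a ligand of central vein endothelium, lay between 6.61 and 6.80 in the tumours and between 6.86 and 7.03 in non-tumour, without overlap but near the filter at 6.22. Rspo3, the R-spondin of the central vein, stood at 6.84, 7.35 and 7.50 in tumour 405, 483 and 616, against 7.36, 8.22 and 7.47 in non-tumour 405, 483 and 623, lowest in tumour 405. Wnt4, another ligand, had a difference of -0.40 and Fzd4, a Wnt receptor, of 0.46. In all, 3 of the 26 did not overlap and were lower and 0 were higher, where the shares over all features were 3.81% and 3.97%. Besides Wnt2 these were Frzb (-0.29) and Sfrp1 (-0.23), secreted modulators of Wnt that are named here after their values were seen. Both also lay near the filter.

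Genes of ammonia, glutamine and glutamate transport next to Glul and Rhbg gave 13 features, 2 with positive and 11 with negative differences, none passing (smallest limma adjusted p = 0.921), with a median of -0.35, or -0.19 without tumour 405. Tumour 405 was lowest for 7 of the 13. Slc38a3, the glutamine transporter SNAT3, stood at 11.77, 12.16 and 12.12 in tumour 405, 483 and 616, against 12.87, 13.09 and 12.63 in non-tumour 405, 483 and 623, without overlap (difference -0.85 ± 0.19, SE, limma adjusted p = 0.921). Slc1a1, a glutamate transporter related to Slc1a2, stood at 9.47, 8.33 and 8.86 in the tumours, against 5.24, 5.18 and 8.63 in non-tumour (difference 2.53 ± 0.84, SE, limma adjusted p = 0.921). As deposited it passed (2.02, limma adjusted p = 0.00435), although non-tumour 623 overlapped the tumours. Slc38a2 (-0.71) and Slc38a4 (-0.35), amino acid transporters of the same family as Slc38a3, had negative differences, and the groups did not overlap for Slc38a4. In all, 3 of the 13 did not overlap and were lower and 0 were higher, where the shares over all features were 3.81% and 3.97%.

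Of 9 features of D-type cyclins, their kinases and inhibitors, 6 had positive and 3 negative differences, none passed (smallest limma adjusted p = 0.921), and the median was 0.45. That value rested on single arrays and on the scaling, since it was -0.04 without tumour 483, 0.10 without non-tumour 405, 0.27 without tumour 405, 0.28 without non-tumour 483 and 0.04 as deposited. Cdk4, a kinase partner of Ccnd1, stood at 11.89, 11.06 and 11.34 in tumour 405, 483 and 616, against 11.06, 11.10 and 10.79 in non-tumour 405, 483 and 623. Cdk6, the other kinase partner, was lowest in tumour 405, at 7.03, with the remaining arrays at 8.71 to 10.41 (difference -1.24 ± 0.63, SE, limma adjusted p = 0.921). E2f1 (0.88), a transcription factor held by the retinoblastoma protein, and the inhibitor Cdkn1b (0.57) had positive differences with overlapping groups.

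The gene whose pattern over the 6 arrays lay nearest to the brighter Glul feature was Rhbg, with a root mean square distance of 0.26 log2 units between values centred on their own means. Next came Ahr (0.30), the aryl hydrocarbon receptor, Ccl5 (0.34), a chemokine, Lum (0.34), a matrix proteoglycan, and Olfml3 (0.35), an olfactomedin-like secreted protein. Among the other genes described here Lgr5 stood at rank 18 (0.41), Tbx3 at 36 (0.47), Axin2 at 89 (0.58), Lect2 at 278 (0.78) and Cyp2e1 at 517 (0.89). Ctnnb1 at rank 9392 (1.34) and Ccnd1 at rank 15923 (1.61) were far from it. The distance depends on the size of the range as well as on the order of the arrays. Over the 6 arrays Ctnnb1 ranged over 0.70 units, against 3.54 for the brighter Glul feature. The 6 arrays may share animals, so the order is a description of these arrays.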

How the data were processed

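Biotin-labelled RNA was hybridised to Affymetrix arrays, and the deposited values are intensities on a linear scale that the authors summarised and normalized with PLIER, per the labels, with mm9 as the genome named in the submitters' processing notes. Which version of PLIER was used is not given in the sources used here. In all, 238609 features were listed, of which 24343 had 1 gene symbol, 1797 several and 212469 none. Entrez numbers tied 23782 of the 24343 to RefSeq genes, and 0 symbols changed.

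Because the deposited arrays differed in their medians, log2(intensity + 16) was quantile-normalized over features with 1 symbol. Features with a mean at or above the 25th percentile (6.22) were kept. Tumour was compared with non-tumour in R 4.3.3 by limma 3.58.1 (lmFit, eBayes with an intensity trend, 4.31 prior degrees of freedom), Benjamini-Hochberg adjusted over all 18257 features, with a threshold of 0.05. The code was tested on simulated data. Features were not merged by gene, and an array counted as lowest only without a tie. Alternatives covered scaling, the pseudocount, the filter, the trend, the replicate number as a block, and each array left out.

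Members and lists were chosen with earlier results of these data known. Named were all members, from each list up to 4 features with the smallest p, the 5 genes nearest to Glul, and Xist, Eif2s3y and Alb. Lists covered other pericentral, periportal and Wnt pathway genes, ammonia and glutamine handling, D-type cyclins, and markers of hepatocytes, endothelium, macrophages, stellate cells, cholangiocytes and lymphocytes, and sex chromosome genes.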

Additional observations from a re-analysis of the deposited data

How the results depend on the processing

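On the deposited scale limma called 14 features higher and 46 lower, against 0 and 0 after quantile normalization. Of the 10 features 1, Cyp2e1 (-1.67), was called. From the lists, Cldn2 (-2.19) and Cyp7a1 (-2.20) were called lower and Slc1a1 (2.02) higher. The fit on the deposited scale gave every feature the variance of the intensity trend. With the numbers as a replicate block the counts were 1 higher and 0 lower, and 0 of the 10 features passed. The labels do not say what the numbers mark, so no pairing was assumed. The deviations from the group means correlated at 0.28 for the arrays numbered 405 and -0.01 for those numbered 483. The 0.28 was the highest of all pairs of a tumour with a non-tumour array, and the lowest was -0.34. With 3 arrays in each group these values cannot show whether animals were shared. Leaving out each array in turn left all counts at 0, with the median of the 10 features between -1.09 and -0.06 and their median SD among tumours between 0.40 and 2.08. Without both arrays numbered 405, an alternative chosen after seeing the data, that SD was 0.40. Signs turned for Ccnd1 (0.028) and Ctnnb1 (0.18) after median centring, and for the dimmer Glul feature as deposited (-0.48) and without both arrays numbered 405 (-0.086). They also turned for Rhbg without both arrays numbered 405 (0.16). With each array left out in turn, the brighter Glul feature ran from -1.21 without non-tumour 405 to 0.50 without tumour 405. The dimmer one ran from -0.053 without non-tumour 405 to 0.15 without tumour 616, Rhbg from -0.74 without non-tumour 405 to 0.75 without tumour 405, and Tbx3 from -1.66 without tumour 483 to 0.47 without tumour 405. The cause was not tested. The other 137 differences kept their sign and their side of the threshold. Dim features limit the depth of the low values: Lgr5 and Axin2 in tumour 405 had deposited intensities of 9.76 and 13.3, under the pseudocount. On the normalized scale Lgr5 (4.99), Axin2 (5.20), Rhbg (5.69) and Tbx3 (5.72) in tumour 405 lay under 6.22, the level that the filter set for means.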

Other observations

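Of 8 endothelial markers, 2 were lowest in tumour 405, Lyve1, a hyaluronan receptor, and Stab2, a scavenger receptor. Lyve1 stood at 8.48, 11.27 and 9.35 in tumour 405, 483 and 616, against 9.44, 9.14 and 10.37 in non-tumour 405, 483 and 623, and both were named after their values were seen. Emcn, the endothelial sialomucin endomucin, stood at 10.24, 9.81 and 8.79 in tumour 405, 483 and 616, against 8.33, 7.49 and 8.22 in non-tumour 405, 483 and 623, without overlap (difference 1.60 ± 0.42, SE, n = 3 each, limma adjusted p = 0.921). Pecam1, the adhesion molecule CD31, had a difference of 0.78, and the list of 8 features had a median of 0.06 (-0.06 without tumour 483, -0.21 without non-tumour 483 and -0.29 as deposited), with 5 positive and 3 negative and none passing. Ptprb (-0.44), an endothelial phosphatase, and Kdr (0.27), a VEGF receptor, pointed opposite ways.

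Reln, a secreted glycoprotein made by stellate cells in liver, stood at 6.73, 9.30 and 9.55 in tumour 405, 483 and 616, against 10.78, 10.24 and 10.15 in non-tumour 405, 483 and 623, without overlap (difference -1.87 ± 0.68, SE, limma adjusted p = 0.921). Lrat, which stores retinol in stellate cells, stood at 6.33, 8.63 and 7.84 in the tumours, against 7.03, 9.35 and 8.79 in non-tumour, with both arrays numbered 405 lowest. The 6 cholangiocyte and progenitor features had a median of -0.10, and tumour 405 was lowest for 0 of them. Tdo2, the tryptophan dioxygenase of hepatocytes, lay between 10.90 and 11.32 in the tumours and between 11.68 and 12.06 in non-tumour, without overlap (difference -0.87 ± 0.22, SE, limma adjusted p = 0.921).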
